A study of Mus musculus with 6 samples.

Results

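The 10 genes described here are Islr2, Gad2, Cadps2, Camk4, Necab1, Synpr, St8sia1, Cpm, Arsi and Tmem74, which share roles in neurons, in secretion or at the cell surface and are not on the usual lists of lens genes. They were chosen on measured values, namely a large fall of signal in Pax6-/- tissue on these same arrays, so their differences between genotypes are given as a description. A fit over all probes also counts them, and nothing about them is read from it except the standard errors of their differences. They are 10 of the 19057 genes named on the array, and 21 of its 45281 probes carry their symbols. Of these 21 probes, 12 were detected on at least 3 of the 6 arrays and were kept, and 9 were not; each of the 10 genes had a kept probe. The idea that all of them were lost without Pax6 did not hold for each gene: Tmem74 was brighter in Pax6-/- tissue, and Synpr and Necab1 stood barely above background in wild type. The brightest kept probes of Cadps2 and Camk4 were still detected on 2 of 3 Pax6-/- arrays each, and those of Gad2 and Arsi on 1 each.

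The study used mouse embryos of a mixed background (FVB; 129) at embryonic day 9.5. Surface ectoderm of Pax6-/- embryos, where the transcription factor Pax6 is missing and no lens forms, was set against the lens placode of wild type embryos, each cut by laser from frozen sections of 10 µm. RNA of 3 embryos was pooled within a genotype, and 3 amplified samples of each genotype were hybridised to Illumina bead arrays. The labels give neither the Pax6 allele nor a sign that the 3 samples come from separate embryos. A p-value therefore measures only the spread between these samples. How much of that spread is technical is not known, and Pax6-/- replicate 2 differed from the other Pax6-/- arrays in sex-linked genes, as given below. The tissue named for Pax6-/- (surface ectoderm) differs from that named for wild type (lens placode), so genotype and tissue cannot be told apart. In such bulk tissue, fewer cells of a type and less RNA per cell cannot be told apart either.

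The lens placode is a thickening of the head surface ectoderm that folds in to make the lens, and Pax6 is needed for it. Neurons release transmitters such as GABA from small synaptic vesicles and peptides from dense-core vesicles, and calcium entry triggers both. Several proteins of this machinery are also made outside neurons, in endocrine and epithelial cells. Pax6 is known as a regulator of neural and endocrine genes as well as of lens genes.

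On Pax6-/- replicate 2, 17276 probes were detected, against 21329 and 21589 on the other Pax6-/- arrays and 21062 to 22712 on the wild type arrays. That array also stood apart in sex-linked genes. A probe of Xist read 11.68 on it (log2 signal) and 4.63 to 4.90 on the 5 other arrays, and a Kdm5d probe was undetected on it at 4.56 and read 6.29 to 7.10 elsewhere. The labels describe pooled RNA for each genotype, and which embryos went into each array is not stated. Values without this array are given where they move a result. Pax6 RNA was still detected in Pax6-/- tissue, with means of 10.46 ± 0.29 against 11.11 ± 0.05 in wild type for one probe and 10.24 ± 0.24 against 10.99 ± 0.19 for the other (SD, n = 3 each). Neither the allele nor the probes' place in the gene is known here, so Pax6 does not check the labels. The limma test over all kept probes, at an adjusted p under 0.05, called 2 probes, both of Tnc, which codes for tenascin C.

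Start-site sequence was at hand for 6 of the 10 genes, from RefSeq windows of 300 bases on GRCm38.p6 (250 bases before a start site to 50 after it). The 4 windows below belong to genes with large differences and are shown because they differ in base composition and in the motifs found. Capitals mark motif matches, and each window is written 5′ to 3′ on the gene's strand. Gad2 lies at chr2:22622077-22622376 (plus strand), Islr2 at chr9:58204270-58204569 (minus), Cadps2 at chr6:23839372-23839671 (minus) and Cpm at chr10:117629250-117629549 (plus).
Gad2: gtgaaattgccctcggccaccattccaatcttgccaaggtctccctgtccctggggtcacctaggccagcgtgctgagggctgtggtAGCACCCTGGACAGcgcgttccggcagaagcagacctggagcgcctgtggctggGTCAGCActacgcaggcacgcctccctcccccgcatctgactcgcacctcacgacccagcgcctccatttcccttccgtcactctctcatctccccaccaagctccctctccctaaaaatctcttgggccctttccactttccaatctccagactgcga
Islr2: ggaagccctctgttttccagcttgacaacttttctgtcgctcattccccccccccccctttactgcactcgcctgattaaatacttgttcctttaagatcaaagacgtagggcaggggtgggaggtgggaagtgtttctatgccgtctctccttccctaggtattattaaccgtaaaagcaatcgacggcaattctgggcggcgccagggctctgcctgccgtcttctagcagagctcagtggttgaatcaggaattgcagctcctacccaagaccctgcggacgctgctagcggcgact
Cadps2: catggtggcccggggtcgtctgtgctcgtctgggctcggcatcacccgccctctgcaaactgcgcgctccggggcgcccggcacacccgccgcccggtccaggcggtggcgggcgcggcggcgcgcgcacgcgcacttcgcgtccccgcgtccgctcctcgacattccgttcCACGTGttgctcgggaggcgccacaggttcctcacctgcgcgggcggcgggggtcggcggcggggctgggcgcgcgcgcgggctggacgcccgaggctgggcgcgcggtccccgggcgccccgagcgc
Cpm: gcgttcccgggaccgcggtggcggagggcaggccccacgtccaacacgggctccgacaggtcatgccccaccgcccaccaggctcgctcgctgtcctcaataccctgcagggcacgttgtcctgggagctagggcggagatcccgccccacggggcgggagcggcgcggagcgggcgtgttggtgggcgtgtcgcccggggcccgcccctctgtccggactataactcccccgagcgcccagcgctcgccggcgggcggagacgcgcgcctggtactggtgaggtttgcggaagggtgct
Islr2 has 3 annotated starts and the first is printed. The Cadps2 window is 79.7% G and C with 54 CpG pairs and the Cpm window 73.7% with 37, against medians of 52.7% and 7 over all 32851 windows. The Gad2 window is 61.3% G and C and the Islr2 window 54.0%, with 14 CpG pairs each.

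Motifs were searched on both strands in the 9 windows of these 6 genes. The core of the Pax6 paired domain site, TTCACGC, was in none of them and in 1.26% of all windows, and the homeodomain core TAATTA was in none and in 5.29%. The Maf recognition core TGCTGAC was in the Gad2 window, on the minus strand at positions 142 to 148, and in 4.67% of all windows. The E-box CACGTG was in the Cadps2 window at positions 173 to 178 and in 7.15%. The Gad2 window also holds AGCACC and GGACAG set 2 bases apart at positions 88 to 101, the pattern bound by REST, a repressor of neuronal genes; 17 windows, or 0.0517% of all, hold it. That pattern was looked for after the Gad2 sequence had been seen. The motifs share no bases with each other, a match is a description of the letters, and a window without one says nothing about the factor.

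On the log2 scale used throughout, differences are Pax6-/- minus wild type, and a value below 0 is lower in Pax6-/-. The standard error of a difference is the moderated one of limma, which also draws on the spread of all kept probes. It therefore does not follow from the SDs printed beside it. Where a genotype was undetected on at least 1 array, the fold is a lower bound: on each array of that genotype the probe's value is used, raised to the dimmest signal detected on that array where it lies below. Of the 12 kept probes, limma called 0 at an adjusted p under 0.05, where 0.0091% of all kept probes were called. At an unadjusted p under 0.05, 9 of the 12 were lower and 1 was higher, where 5.22% and 4.04% of all kept probes were. With each gene read from its brightest kept probe, 9 genes were lower and 1 was higher with no overlap between the genotypes, where 10.3% and 7.21% of the 10967 measured genes were. Since the genes were chosen on this contrast, nothing is read from these counts or from the median that follows. The median difference of the 10 genes was -2.58, beside -0.07 over all measured genes. By detection, 6 of the 21 probes were detected on all wild type arrays and no Pax6-/- array, where 0.61% of all probes were, and 1 showed the opposite pattern, where 0.137% did. These 7 probes passed the filter only through 1 genotype, and a choice by large falls favours the first pattern, so these counts too are a description.

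**Figure D1:**
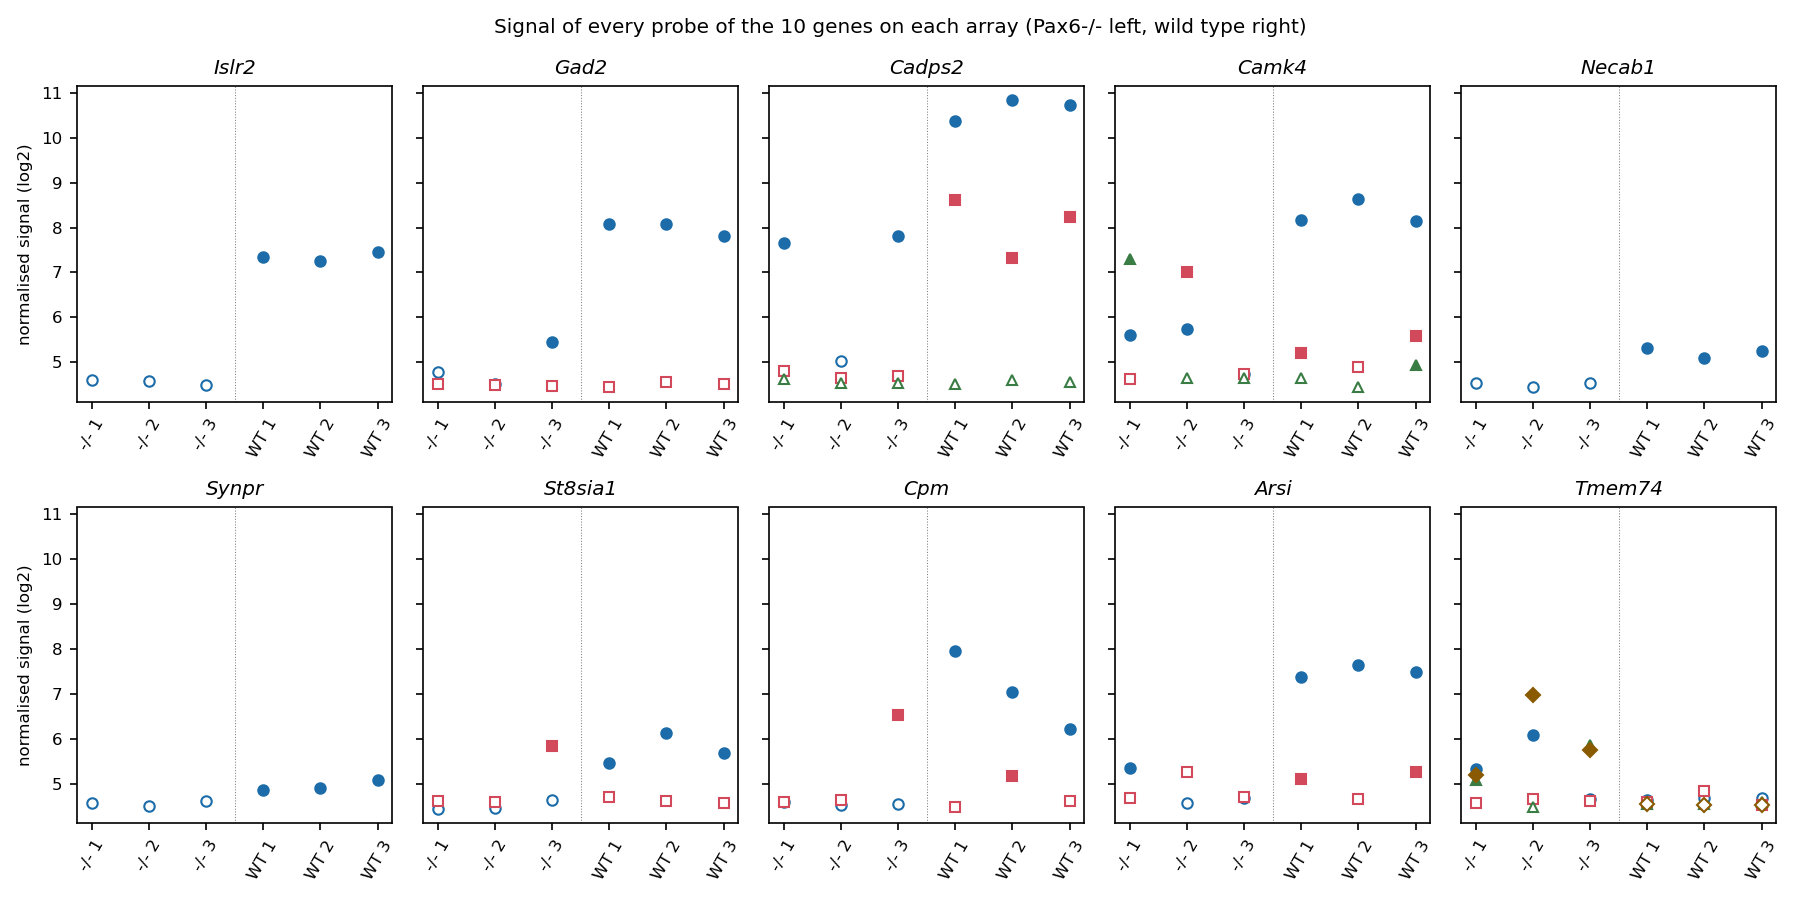
Normalised signal (log2) of each probe of the 10 genes on the 3 Pax6-/- arrays (left) and the 3 wild type arrays (right). Each marker shape is a probe of that gene, filled where it was detected (detection p under 0.05) and open where it was not. Islr2 and Cpm had a filled probe on all wild type arrays and open ones on all Pax6-/- arrays for the same probe, and Tmem74 had filled points only in Pax6-/-.

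Islr2 codes for a membrane protein with leucine-rich repeats and an immunoglobulin domain that takes part in axon growth and guidance in mice. Its single probe, ILMN_2944610, read 4.59, 4.57 and 4.48 in Pax6-/- and 7.34, 7.26 and 7.45 in wild type. It was undetected on every Pax6-/- array and detected on every wild type array, and the genotypes were far apart. The means were 4.55 ± 0.06 and 7.35 ± 0.10 (SD, n = 3 each), a difference of -2.80 (standard error 0.24), or at least 4.96-fold lower in Pax6-/-. The difference was -2.76 on slide 1 and -2.87 on slide 2. Islr2 was the steadiest of the genes with a large difference: the scanner signal was 56.3, 52.4 and 47.5 in Pax6-/- against 214, 208 and 214 in wild type.

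Gad2 codes for a glutamate decarboxylase, which makes GABA at synaptic vesicles. Probe ILMN_2460754 read 4.77, 4.52 and 5.46 in Pax6-/- and 8.09, 8.07 and 7.80 in wild type. It was detected on 1 of 3 Pax6-/- arrays, replicate 3, and on all 3 wild type arrays. The means were 4.91 ± 0.49 and 7.99 ± 0.16 (SD, n = 3 each), a difference of -3.07 (standard error 0.32) and at least 6.71-fold lower. The difference was -3.45 on slide 1 and -2.48 on slide 2. The other Gad2 probe, ILMN_2668908, was undetected on all 6 arrays at 4.44 to 4.55. That undetected probe is the one the platform annotation ties to a RefSeq transcript, while the bright one has no accession listed.

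Cadps2 codes for a protein that primes dense-core vesicles for calcium-triggered release. Its bright probe, ILMN_2998313, read 7.65, 5.03 and 7.82 in Pax6-/- and 10.39, 10.83 and 10.73 in wild type. It was undetected on Pax6-/- replicate 2 alone, and the genotypes did not overlap. The means were 6.83 ± 1.56 and 10.65 ± 0.24 (SD, n = 3 each), and the difference of -3.82 (standard error 0.73) was -2.92 without that array. With all arrays it was at least 12.98-fold lower. Only 2 of the 10967 measured genes, Cadps2 included, had a difference this low. A further probe, ILMN_2574633, read 4.81, 4.64 and 4.70 in Pax6-/- and 8.62, 7.32 and 8.24 in wild type. It was undetected on every Pax6-/- array, with a difference of -3.34 (standard error 0.37), at least 8.09-fold lower. The last Cadps2 probe, ILMN_2590164, was undetected on all 6 arrays.

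Synpr codes for synaptoporin, a synaptic vesicle membrane protein. Its single probe, ILMN_2698947, read 4.58, 4.49 and 4.61 in Pax6-/- and 4.86, 4.91 and 5.08 in wild type. The genotypes did not overlap, but wild type was detected only narrowly, with detection p-values of 0.0385, 0.0459 and 0.016. The means were 4.56 ± 0.06 and 4.95 ± 0.11 (SD, n = 3 each) and the difference -0.39 (standard error 0.24). No lower bound of the fold above 1 could be given, and 27.2% of all measured genes had a difference at or below that of Synpr. In the authors' processed values it was -0.13.

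Camk4 codes for a kinase that calcium and calmodulin switch on and that phosphorylates CREB in the nucleus. Probe ILMN_2455304 read 5.60, 5.74 and 4.74 in Pax6-/- and 8.18, 8.63 and 8.16 in wild type. It was detected on 2 of 3 Pax6-/- arrays and on all wild type arrays, with no overlap. The means were 5.36 ± 0.54 and 8.32 ± 0.27 (SD, n = 3 each), a difference of -2.96 (standard error 0.35), at least 7.56-fold lower, that was -2.50 on slide 1 and -3.65 on slide 2. The other 2 Camk4 probes did not show this over all arrays. ILMN_2708107 read 4.62, 7.01 and 4.73 in Pax6-/- and 5.20, 4.88 and 5.57 in wild type, a difference of 0.24 (standard error 0.65) with overlap. That overlap rested on Pax6-/- replicate 2 alone, since replicates 1 and 3 lay below each wild type value. The difference of this probe was 0.62 on slide 1, which holds replicate 2, and -0.49 on slide 2. ILMN_1229721 was detected on 1 array of each genotype, at 7.29 on Pax6-/- replicate 1 and at 4.93 on wild type replicate 3.

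Necab1 codes for a neuronal calcium-binding protein with an EF-hand. Its single probe, ILMN_2821247, read 4.53, 4.44 and 4.53 in Pax6-/- and 5.32, 5.08 and 5.25 in wild type. It was undetected on all Pax6-/- arrays and detected on all wild type arrays, with detection p-values of 0.015, 0.0278 and 0.0118. The means were 4.50 ± 0.05 and 5.22 ± 0.12 (SD, n = 3 each), a difference of -0.72 (standard error 0.24) and at least 1.13-fold lower. A difference this low or lower was held by 13.2% of all measured genes.

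St8sia1 codes for GD3 synthase, the sialyltransferase that makes the ganglioside GD3 from GM3. Probe ILMN_1249093 read 4.44, 4.46 and 4.63 in Pax6-/- and 5.45, 6.13 and 5.67 in wild type. It was detected in wild type only, on all 3 arrays. The means were 4.51 ± 0.10 and 5.75 ± 0.35 (SD, n = 3 each), a difference of -1.24 (standard error 0.28) and at least 1.63-fold lower. The other St8sia1 probe, ILMN_1225487, was detected on Pax6-/- replicate 3 alone, at 5.84.

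Cpm codes for carboxypeptidase M, a membrane-anchored enzyme that trims basic residues from the end of peptides. Probe ILMN_2629191 read 4.58, 4.53 and 4.54 in Pax6-/- and 7.95, 7.04 and 6.22 in wild type. The Pax6-/- arrays were all undetected and close together, while the wild type arrays were spread out and all detected. The means were 4.55 ± 0.02 and 7.07 ± 0.87 (SD, n = 3 each), a difference of -2.52 (standard error 0.44) and at least 4.08-fold lower. The difference was -3.40 on slide 1 and -2.09 on slide 2. The other Cpm probe, ILMN_2476452, was detected on Pax6-/- replicate 3 at 6.52 and on wild type replicate 2 at 5.16.

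Arsi codes for an arylsulfatase, of the family that removes sulfate groups. Probe ILMN_2472093 read 5.35, 4.57 and 4.67 in Pax6-/- and 7.37, 7.65 and 7.48 in wild type. It was detected on Pax6-/- replicate 1 only and on all wild type arrays. The means were 4.86 ± 0.42 and 7.50 ± 0.14 (SD, n = 3 each), a difference of -2.64 (standard error 0.30) and at least 4.93-fold lower. The other Arsi probe, ILMN_2852844, was undetected on all Pax6-/- arrays and detected on 2 of 3 wild type arrays, reading 4.67, 5.27 and 4.71 in Pax6-/- and 5.09, 4.67 and 5.25 in wild type, with overlap. As for Gad2, the bright probe has no accession listed and the dim probe has a RefSeq transcript.

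Tmem74 codes for a membrane protein of lysosomes and autophagosomes that promotes autophagy in human cells. Its kept probe, ILMN_1259376, read 5.19, 6.96 and 5.74 in Pax6-/- and 4.54, 4.53 and 4.52 in wild type. It passed the filter only through the Pax6-/- arrays, all 3 detected, while no wild type array was. The means were 5.97 ± 0.91 and 4.53 ± 0.01 (SD, n = 3 each), a difference of 1.44 (standard error 0.46), or at least 2.20-fold higher in Pax6-/-. Without Pax6-/- replicate 2 the difference was 0.94. ILMN_2901882 and ILMN_1246324 were each detected on 2 Pax6-/- arrays and on no wild type array, and ILMN_2739998 was undetected on all 6. No Tmem74 probe was detected in wild type, so its choice as a gene with a large fall is not borne out by any of its 4 probes.

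**Figure D2:**
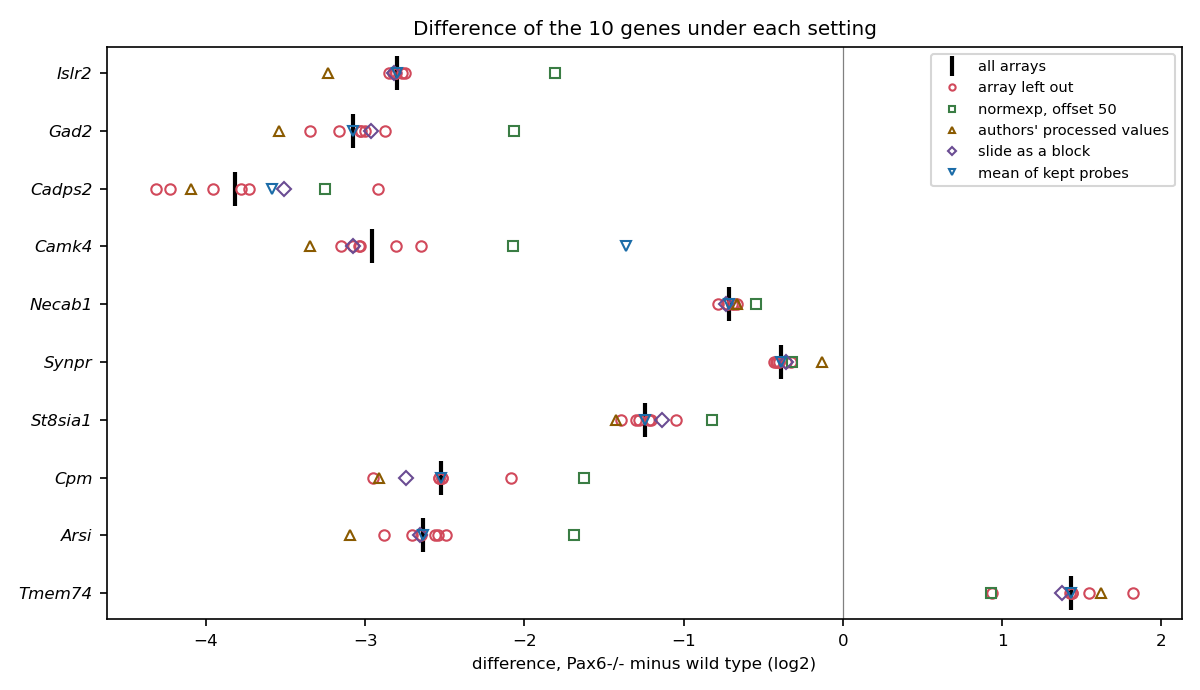
Difference of each of the 10 genes, Pax6-/- minus wild type (log2, x axis), with all arrays (black bar) and under other settings (open markers, defined in the legend). The 9 genes left of 0 stayed left of 0 under each setting drawn and Tmem74 stayed right of it. Camk4 lay at -1.36 when its kept probes were averaged.

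The 10 genes fell into 3 bands by size of difference, where bands are a way of reading the list and not a test. Cadps2, Gad2, Camk4, Islr2, Arsi and Cpm lay between -3.82 and -2.52, with at most 28 measured genes at or below any of them. St8sia1 at -1.24 had 402 genes at or below it, Necab1 at -0.72 had 1452 and Synpr at -0.39 had 2981. Tmem74 lay on the other side of 0. Probes of 1 gene often differed. Of the 7 genes with more than 1 probe, Cadps2 had 2 probes detected on all wild type arrays and Gad2, Camk4, St8sia1, Cpm and Arsi had 1 each, and Tmem74 had none.

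The spread between arrays could be set beside the error over beads, since each signal is a mean over 30 to 75 beads. Over the 12 kept probes the SD between arrays was 1.41 to 17.5 times the mean bead standard error in Pax6-/- (median 3.41) and 0.485 to 16.4 times in wild type (median 3.50). Cpm in wild type was the widest there: scanner signals of 305, 185 and 114 had bead standard errors of 8.78, 5.23 and 3.65. Cadps2 was the widest in Pax6-/-, at 265, 61.0 and 268, the dim value being replicate 2. Islr2 in wild type was the narrowest, with an SD below the bead error.

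**Figure D3:**
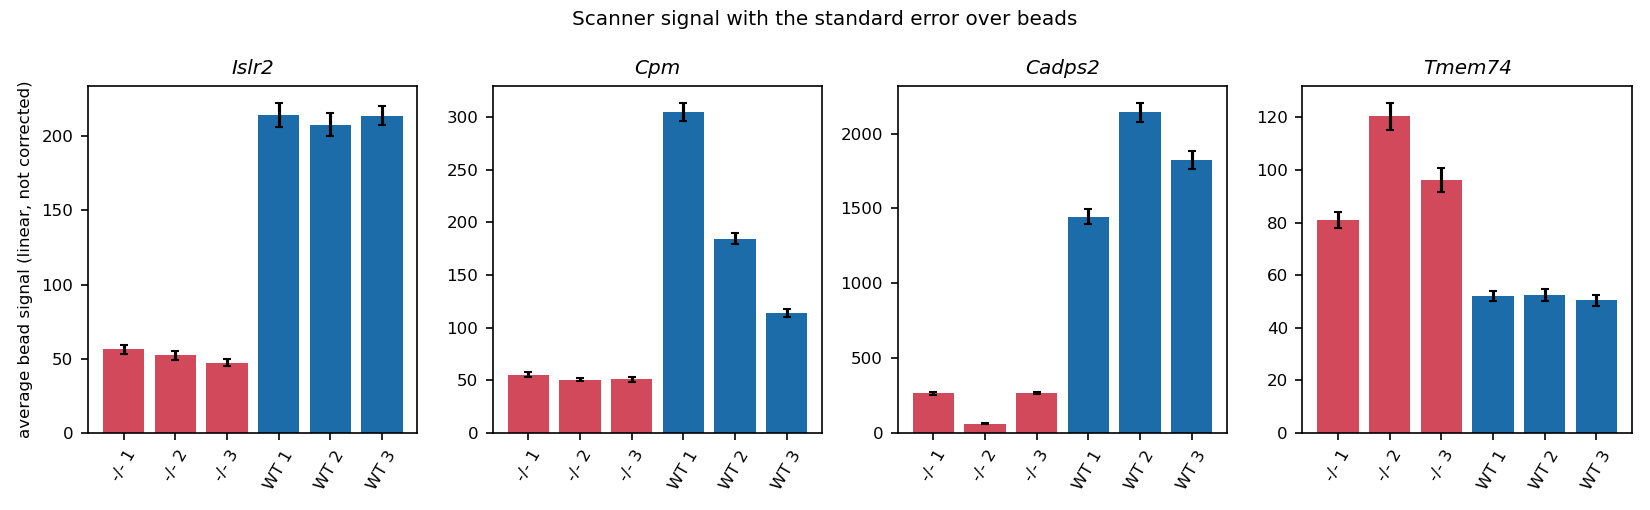
Scanner signal (linear, not background-corrected, starting at 0) of 1 probe each of Islr2, Cpm, Cadps2 and Tmem74 on the 3 Pax6-/- arrays (red, left) and the 3 wild type arrays (blue, right). Error bars are the standard error over beads on that array. The wild type bars of Cpm differ by more than their bead errors, and those of Islr2 do not.

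Other genes of the same families were read from 9 lists. Over the lists, 115 other genes were measured and limma called 0 of them. At an unadjusted p under 0.05, 7 were lower and 5 were higher, where 5.22% and 4.04% of all kept probes were. Their median difference was -0.18. Among genes of GABA synthesis, transport and receptors, 3 of 6 measured were higher and 3 lower (median -0.02). The smallest p was that of Gabrg3, a GABA receptor subunit, at -0.95 (standard error 0.37, limma adjusted p = 0.520). Gad1, the other glutamate decarboxylase, had 4 probes and none was kept. Of the dense-core vesicle genes, 6 of 21 were higher and 15 lower (median -0.21). Pam, which amidates secreted peptides, was at -0.87 (standard error 0.27, limma adjusted p = 0.434). Cadps, the nearest relative of Cadps2, was at -0.04 (standard error 0.43).

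Of the synaptic vesicle membrane genes, 4 of 10 were higher and 6 lower (median -0.23). Syngr2, a synaptogyrin, read 6.59, 7.23 and 6.86 in Pax6-/- and 5.20, 4.61 and 5.27 in wild type, with no overlap. Its difference of 1.87 had a standard error of 0.31 and a limma adjusted p of 0.190. Syp, or synaptophysin, was at -0.21 (standard error 0.89) and its relative Sypl at -0.25 (standard error 0.25). In the calmodulin kinase and Necab list, 7 of 12 were higher and 5 lower (median 0.07). Crem, a relative of the kinase target CREB, was at -1.46 (standard error 0.47, limma adjusted p = 0.440). Camkk2, a kinase that activates Camk4, was at 0.77 (standard error 0.28) and Necab2 at 0.61 (standard error 0.47).

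In the sialyltransferase and ganglioside list, 5 of 17 were higher and 12 lower (median -0.38). St3gal1 read 7.88, 8.34 and 7.55 in Pax6-/- and 6.57, 4.68 and 6.23 in wild type, a difference of 2.10 (standard error 0.53, limma adjusted p = 0.345). The St8sia1 relatives St8sia3 and St8sia4 were at 0.56 and -0.81 (standard errors 0.32 and 0.58). Of the metallocarboxypeptidases, 4 of 5 were higher and 1 lower (median 0.13), with Aebp1 at 1.44 (standard error 0.58, limma adjusted p = 0.528) and Cpe, a prohormone-processing enzyme, at -0.36 (standard error 0.44). Of the sulfatases, 3 of 10 were higher and 7 lower (median -0.21), with Sumf2 at -1.08 (standard error 0.57) and the lysosomal enzyme Arsa at -0.38 (standard error 0.46).

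Of the Islr2 relatives and neurotrophin or Ret receptors, 6 of 14 were higher and 8 lower (median -0.34). Ntrk2, the receptor of brain-derived neurotrophic factor, read 6.19, 7.34 and 7.06 in Pax6-/- and 8.50, 9.35 and 8.37 in wild type. The genotypes did not overlap, and its difference of -1.88 had a standard error of 0.42 and a limma adjusted p of 0.282. Islr, the nearest relative of Islr2, was at 0.17 (standard error 0.41). Of the autophagy genes, 8 of 20 were higher and 12 lower (median -0.08), with Gabarap at 0.66 (standard error 0.29, limma adjusted p = 0.558).

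Several of these values rested on 1 array or on the processing. Without Pax6-/- replicate 2, the sign turned for Cadps (0.14), Cpe (0.06) and Islr (-0.26), and Necab2 was at 0.23, Arsa at -0.04, Sumf2 at -0.43 and St8sia4 at -0.18. Leaving out each array in turn gave -1.05 to 0.62 for Syp, -0.43 to 0.18 for Cadps, -0.74 to 0.06 for Cpe, -0.26 to 0.39 for Islr, 0.23 to 1.01 for Necab2, -0.87 to -0.04 for Arsa and -1.22 to -0.18 for St8sia4. Gabrg3 was at -0.61 without wild type replicate 1, Aebp1 at 0.93 without wild type replicate 2 and St8sia3 at 0.36 without Pax6-/- replicate 1. With kept probes averaged, St3gal1 was at 0.54, Crem at -0.66, Ntrk2 at -1.19, Sumf2 at -0.53 and Sypl at -0.50. With the normexp background and its offset of 50, Syngr2 was at 1.12, Crem at -0.93, Gabrg3 at -0.61 and Sumf2 at -0.70. The list medians without Pax6-/- replicate 2 were 0.17 for the GABA genes, where the sign turned, -0.15 for dense-core vesicles, -0.13 for synaptic vesicles, 0.16 for calmodulin kinases, -0.21 for sialyltransferases, 0.20 for carboxypeptidases, -0.39 for sulfatases, -0.29 for Islr2 relatives and -0.02 for autophagy.

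**Figure D4:**
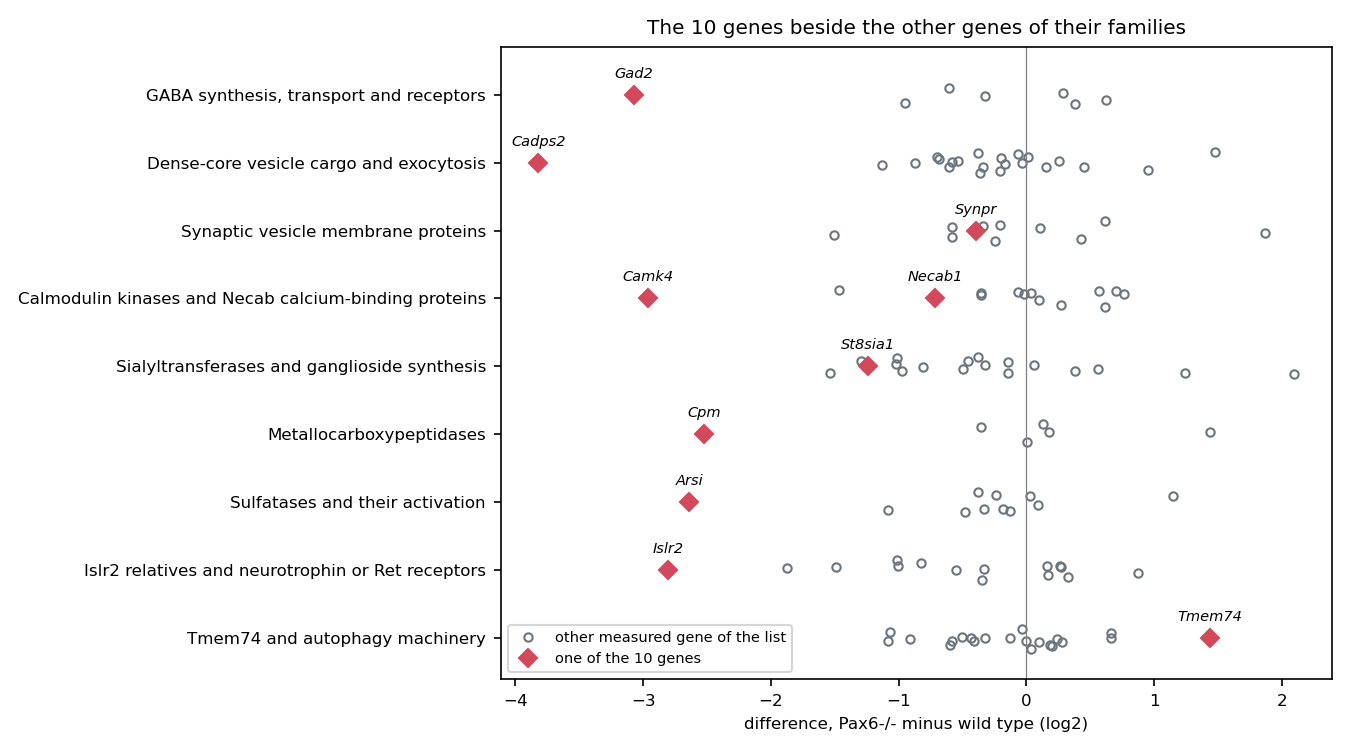
Difference, Pax6-/- minus wild type (log2, x axis), of each measured gene of the 9 family lists (open circles) with the 10 genes as red diamonds. Rows are lists and the small vertical offsets only separate points. Gad2, Cadps2, Camk4, Cpm, Arsi and Islr2 lie left of each other gene of their lists.

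Markers of cell types that the cut tissue could hold were read the same way, and limma called 0 of the 63 genes measured in the 6 marker lists. At an unadjusted p under 0.05, 6 were higher and 16 lower, where 4.04% and 5.22% of all kept probes were. Of the neuron and neurogenic placode markers, 6 of 7 measured were higher and 1 lower (median 0.64). Their summed signal was 8078 to 8724 in Pax6-/- against 5952 to 6445 in wild type, but Sox11, a transcription factor that many embryonic tissues express, made up 85.5% to 91.1% of the sum in Pax6-/- and 91.2% to 92.3% in wild type. The other 6 genes summed to 715 to 1263 against 482 to 531, and Stmn2, Nefl, Neurog1, Neurod4 and Pou4f1 were undetected on all arrays. Isl1, a transcription factor of early neurons and placodes, was at 1.68 (standard error 0.41, limma adjusted p = 0.329).

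Of the lens markers, 1 of 14 was higher and 13 lower (median -1.21). Of the lower ones, 11 did not overlap between genotypes, where 10.3% of all measured genes were lower without overlap. The list summed to 1782 to 2171 in Pax6-/- against 3797 to 5566 in wild type, with Sox1 and Cryaa undetected. Of the endothelium and macrophage markers, 3 of 7 were higher and 4 lower (median -0.21). The 4 lower genes, Cdh5, Sox17, Ramp2 and Esam, did not overlap between genotypes, where 10.3% of all measured genes were lower without overlap. An unadjusted p under 0.05 was held by 3 of the 4, where 5.22% of all kept probes were lower at that level. Sox17 averaged 5.13 in Pax6-/- and 7.25 in wild type, Ramp2 4.98 and 6.38, and Esam 4.54 and 6.50. These genes were picked after their values were seen, and values of the 3 higher genes are not printed here. The list summed to 242 to 666 in Pax6-/- against 431 to 742 in wild type, so the genotypes overlapped. Without the macrophage gene Aif1, left out after its values were seen, the sums were 183 to 301 against 365 to 560. Kdr and Ptprc were undetected.

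Of the surface ectoderm markers, 13 of 15 were higher and 2 lower (median 0.18), and without Pax6-/- replicate 2 they were 8 higher and 7 lower (median 0.11). They summed to 15966 to 19410 in Pax6-/- against 15351 to 15569 in wild type, with Krt17 undetected. Of the optic vesicle markers, 5 of 9 were higher and 4 lower (median 0.13, and 0.32 without that array), with sums of 1185 to 2265 against 1022 to 1255 and Six6, Tbx5 and Zic2 undetected. Of the mesenchyme markers, 5 of 11 were higher and 6 lower (median -0.01, and 0.09 without that array), with Sox10 and Osr1 undetected. With no overlap, 3 were lower and 1 was higher, where 10.3% and 7.21% of all measured genes were. They summed to 3940 to 5439 in Pax6-/- against 4288 to 5001 in wild type. Sox9 made up 59.0% to 67.9% of the sum in Pax6-/- and 42.6% to 51.6% in wild type. Without Sox9, left out after its values were seen, the sums were 1615 to 1795 against 2242 to 2608. The part of these cell types in the values of the 10 genes was not tested.

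The 5 genes whose profile over the 6 arrays lay nearest to the mean profile of the 10 genes, by root mean square distance after centring on the wild type mean, were Dhodh, Mrps10, Mgarp, Tmem82 and Champ1. Their distances on the log2 scale were 0.118, 0.139, 0.151, 0.171 and 0.200. Their differences were -1.86, -1.77, -1.83, -1.84 and -2.11, where the mean profile of the 10 genes lay at -1.81, -2.00 and -1.81 on the 3 Pax6-/- arrays. That mean includes Tmem74 at 1.44, and none of the 10 genes lies at it: St8sia1 at -1.24 and Cpm at -2.52 are the nearest on either side. The 5 genes were picked by this distance on the same arrays, so their differences follow from the choice.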

How the data were processed

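Arrays were Illumina bead arrays of amplified, biotin-labelled cDNA, 3 per genotype, grouped by the sample titles. Per the file headers, the authors deposited an average signal (an intensity on a linear scale, not background-corrected), a detection p-value, a bead number and a bead standard error per probe. The submitters' processing notes name GenomeStudio without a version. The authors' processed intensity values are a second deposited table, linear with values below 0, made by a method that no source used here records.

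Signals were corrected and normalised with limma 3.58.1 (R 4.3.3) neqc, using detection p-values and an offset of 16, then quantile normalisation and log2. Probes detected (p under 0.05) on at least 3 of 6 arrays were kept, 21971 of 45281. Genotype was fitted with lmFit and eBayes, with Benjamini-Hochberg adjustment at 0.05. The fit was tested on simulated data with changes of known size. It called 0.4% of probes lowered by 1 (log2), 32.4% by 2, 55.2% by 3 and 78% by 4, with 4 unchanged probes called per run. A gene that limma did not call may therefore still differ. The simulated signals had normal noise and no floor, unlike signals near background on the arrays, so these rates need not hold for dim probes. A gene was read from its kept probe with the highest mean. The offset compresses differences of dim probes.

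Symbols came from the platform annotation: 34885 probes had 1 symbol, 18 several and 10378 none. Sequences came from RefSeq windows of GRCm38.p6. The members and lists were chosen with earlier results of these data known. The named genes were the 10 with every probe, Pax6, Tnc as the called gene, in each list the gene with the smallest p and up to 2 relatives of a member, the 5 nearest profiles, and undetected or called markers. Genes named otherwise (Xist, Kdm5d, Isl1, Sox11, Sox9, Aif1, Cdh5, Sox17, Ramp2 and Esam) were chosen after their values were seen. Alternatives tried were the background method, cyclic loess, the authors' values, the filter, a slide or replicate block, averaging a gene's probes and leaving out each array. Same-numbered arrays correlated at 0.056, 0.045 and 0.019 in their deviations from the group means, and differently numbered ones at -0.064 to 0.027. Correlations this weak cannot tell whether the replicate numbers pair the arrays, and the main fit did not pair them.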

Additional observations from a re-analysis of the deposited data

How the results depend on the processing

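The precision is limited by 3 arrays a genotype, and no depth is behind an intensity. The median difference of the 10 genes, -2.58, was -1.66 with normexp and an offset of 50, -2.42 with cyclic loess, -3.00 in the authors' processed values, -2.70 with slide as a block, -1.94 with kept probes averaged, and -2.70 to -2.39 with each array left out in turn. With detection p under 0.01 it was -2.88 over the 6 genes still measured; Necab1, Synpr, St8sia1 and Tmem74 had no kept probe. Of 136 values of single genes under these alternatives, 136 had the same sign, and 13 moved by more than the spread between arrays. Part of the 136 only repeat the main value. With no filter, detection p under 0.01 or the replicate number as a block, each gene still measured kept its main value. Averaging kept it too for genes with no further kept probe. The rest reuse the contrast the genes were chosen on, so nothing is read from the count of signs. limma called 6 probes with no filter, 5 with detection p under 0.01, 0 with slide as a block (793 lower and 544 higher at an unadjusted p under 0.05), and 0 to 2 with an array left out, against 2. The Islr2 probe was among those called with no filter and with detection p under 0.01. When kept probes were averaged, limma called 21 genes, 19 lower and 2 higher, with Arsi, Cadps2, Gad2 and Islr2 among the lower ones. As these genes were chosen on this contrast, nothing is read from their calls. The number of measured genes lower without overlap, 1125, was 1515 to 2122 with an array left out, since fewer arrays overlap less often. The cause of the other changes was not tested. Without Pax6-/- replicate 2, an alternative chosen after seeing the data, limma called 0 of the 178 genes measured in the 15 lists. At an unadjusted p under 0.05, 12 of them were higher and 22 lower, where 1056 and 1127 of all 21971 kept probes were. In that setting the surface ectoderm markers were 8 higher and 7 lower, against 13 and 2 with all arrays.

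With the replicate number as a block, the median stayed at -2.58 and limma called 0 probes (1117 lower and 794 higher at an unadjusted p under 0.05). Overlap was not counted for the fits with a block, nor called probes for averaged probes.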

Other observations

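Some probes stood out on a single array. Counting probes that were detected on 1 array only and lay more than 1 (log2) above each other array, Pax6-/- replicates 1, 2 and 3 had 127, 299 and 107, and wild type replicates 1, 2 and 3 had 41, 102 and 38. The second St8sia1 probe on Pax6-/- replicate 3 is among them.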
